A study of Homo sapiens with 12 samples.

Results

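The LINC symbols are given to long intergenic noncoding RNA genes that have no name of their own. Of 62426 genes in the count table, 1397 with any count carry such a symbol, and 185 of them are described here. They were chosen by level: a symbol made of LINC and a number, and a mean of at least 1 CPM (the gene's count scaled to a library total of 1000000 counts) in at least 1 of the 6 groups. Levels therefore chose the members, and a member that reached 1 CPM in a single group is bound to be higher there, so the counts of members below are descriptions.

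The groups were CD44s-OE, CD44v6-OE and parental cells of SW480 and of HCT116, with 2 libraries each and 12 in all. SW480 and HCT116 are established human colon cancer cell lines. CD44s-OE cells were stably transfected with a plasmid for the standard isoform of CD44, a cell surface receptor for hyaluronan, and CD44v6-OE cells with a plasmid for the isoform that keeps variable exon v6. Both were selected with Geneticin, whereas parental cells were not transfected, and no empty-plasmid library was analysed here, so that the isoform and the transfection with selection cannot be told apart against parental cells. The column names of the OE libraries hold the word POOL, whose meaning is not given in the sources used here. Nothing in the labels says that the 2 libraries of a group came from separate cultures, so p-values measure only the spread between them, which may be technical.

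Long noncoding RNAs are transcribed and often spliced like messenger RNAs, but are not known to be translated. Many stay in the nucleus, are present at few copies per cell and are made in a narrower set of cell types than coding genes. Some act on the transcription of a neighbouring gene, others bind proteins or microRNAs, and for most LINC genes no function is established. In bulk RNA, fewer cells with a transcript and less of it per cell cannot be told apart.

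Total counts ranged from 43102156 to 52811889 per library, and the members took 0.0788 to 0.0949% of the counts in SW480 and 0.0478 to 0.0571% in HCT116. A library without a count could still hold 3 read pairs, or 6 counts, which is 0.114 to 0.139 CPM and covers counting error only. Of 11 colon epithelium markers, 6 or 7 were at 1 CPM or more in each library, KRT8, KRT18, KRT19, EPCAM and CDX2 in all 12, while CDH17 was at 0 in HCT116 and in parental SW480 cells and CDX1 at 0 in the HCT116 OE groups. The leukocyte and endothelial lists summed to at most 5.49 CPM. The 4 neuron markers summed to 15.6 to 29.5 CPM in SW480 and 43.7 to 61.4 CPM in HCT116, with SYT1 at 1 CPM or more in all 12 libraries. The CD44 gene count pools the isoforms. It was 187 and 203 CPM in SW480 CD44s-OE, 135 and 147 CPM in SW480 CD44v6-OE and 172 and 165 CPM in SW480 parental cells, and 509 to 552 CPM in all HCT116 libraries, and edgeR called no difference in it within a line. It therefore does not check the labels, and the groups are named here as labelled. CD44-AS1, annotated on the opposite strand, was at 3.38 and 3.91 CPM in SW480 CD44v6-OE and at 1.87 and 2.29 CPM in HCT116 CD44v6-OE, and at 0.066 CPM or less in the other 8 libraries.

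Most members were low. The highest group mean was from 1 to under 2 CPM for 61 of the 185, from 2 to under 10 CPM for 94 and 10 CPM or more for 30. Its median was 2.86 CPM, against 32.9 CPM for the 13092 coding genes chosen in the same way. Per kilobase of exon these medians were 0.994 and 6.01 CPM. The 5 members just inside the threshold had highest means of 1.00 CPM (LINC02315) to 1.02 CPM (LINC02757), and the 5 LINC genes just outside had 0.974 CPM (LINC01023) to 0.993 CPM (LINC00310). At this level the 2 libraries of a group differed by a median of 0.186 to 0.444 on a log2(CPM + 0.1) scale among members at 1 CPM or more. For members of 1 to 10 CPM the medians were 0.190 to 0.499, against 0.189 to 0.433 for other genes in that band, so the members were about as noisy as other genes of their level.

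The members were also found in fewer groups than coding genes. A mean of at least 1 CPM was reached in all 6 groups by 56 members (30.3%), against 10873 coding genes (83.1%), and in 1 group alone by 22 members (11.9%), against 278 coding genes (2.12%). The members were also lower than the coding genes, and the part of their level in this difference was not tested. Of the 22 members in 1 group, 7 were in SW480 CD44s-OE, 6 in HCT116 CD44s-OE, 4 in SW480 parental, 3 in SW480 CD44v6-OE and 2 in HCT116 parental cells. By line, 70 members (37.8%) reached 1 CPM in SW480 only, 35 (18.9%) in HCT116 only and 80 (43.2%) in both, against 7.00%, 5.75% and 87.3% of the coding genes.

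**Figure D1:**
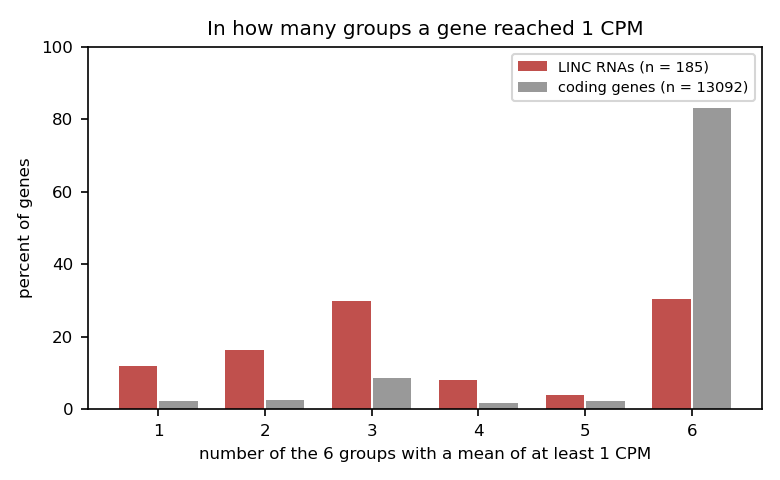
Percent of genes (y axis, from 0) by the number of the 6 groups in which the mean reached 1 CPM (x axis), for the 185 LINC RNAs and for 13092 coding genes. All 6 groups were reached by 30.3% of the LINC RNAs, against 83.1% of the coding genes.

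Positions are those given with the deposited counts (hg19), and coding genes are as typed in GENCODE v44. Of the members, 134 overlapped no coding gene but lay within 100 kb of such a gene, and 27 had none that near. Some of these overlapped a noncoding gene. A further 15 overlapped a coding gene on the opposite strand and 9 on the same strand, and reads of these 9 may be split with that gene. The start of 18 members lay within 1000 bp of an opposite-strand coding start. The median exon length was 3183 bases in 5 exon blocks, against 5176 bases in 11 blocks for coding genes. GENCODE v44 lists 173 of the 185 as lncRNA, 1 as lincRNA, 6 as transcribed unprocessed pseudogenes and 2 as transcribed unitary pseudogenes. It lists 3 as coding. One of these 3 is LINC00514, there named GREP1, a glycine-rich extracellular protein gene, so that its noncoding label is in doubt.

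The line was where the members differed most. Among all 185, parental SW480 cells were higher than parental HCT116 cells for 77 and lower for 30 (edgeR, Benjamini-Hochberg adjusted p below 0.1 with a log2 fold change beyond 1.5 in either direction), which is 57.8% of them, against 29.0% of all 19567 genes tested (16.1% higher and 12.9% lower). Their median log2 fold change was 1.02, against 0.04 for all genes. Because the rule admits genes through their highest group, this share is not evidence about the members. Among the 56 members that reached 1 CPM in all 6 groups, 9 were higher in SW480 and 2 lower (LINC01234 and LINC00641), with a median log2 fold change of 0.23.

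The most abundant members were largely shared between the lines. LINC00511, a long multi-exon transcript at chr17:70286232-70636611, had a mean of 58.5 CPM over the 6 SW480 libraries and 20.5 CPM over the 6 HCT116 libraries, or 2.11 and 0.740 CPM per kilobase of exon. Its parental log2 fold change of 1.33 (SE 0.18, edgeR adjusted p 2.93e-05) stayed under the fold threshold. LINC00963 had means of 47.6 CPM in SW480 and 32.6 CPM in HCT116, with a parental log2 fold change of 0.09 (SE 0.17, edgeR adjusted p 0.67). LINC02693, LINC00551 and LINC01278 completed the shared members among the 8 highest of SW480, with means of 41.7, 37.2 and 23.6 CPM in SW480 and 18.7, 11.7 and 10.9 CPM in HCT116. LINC00551, whose start lies 124 bp from the coding gene ARGLU1 on the opposite strand, showed how far 2 libraries can part, with 47.6 and 15.4 CPM in SW480 CD44s-OE.

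LINC01234 was the highest member in HCT116. It had 2.85 and 4.20 CPM in parental SW480 cells, against 44.4 and 34.3 CPM in parental HCT116 cells, and its log2 fold change was -3.46 (SE 0.25, edgeR adjusted p 5.74e-08). The 6 libraries of each line did not overlap, at 2.85 to 5.19 CPM in SW480 and 32.3 to 44.4 CPM in HCT116. LINC01184, LINC02210 and LINC00205 were well above 1 CPM in both lines, at means of 20.8, 10.8 and 20.8 CPM in SW480 and 29.3, 19.8 and 15.7 CPM in HCT116. LINC02210, a transcribed unitary pseudogene in GENCODE v44, overlaps LINC02210-CRHR1 on the same strand, so reads may be split between them. LINC00839 had a mean of 0.155 CPM in SW480 and 18.5 CPM in HCT116.

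LINC02600 showed the opposite pattern. This transcript of 2 exon blocks, 2958 bp from the adrenergic receptor gene ADRA2C, had 50.8 and 56.6 CPM in parental SW480 cells, against 0.530 and 0.646 CPM in parental HCT116 cells, for a log2 fold change of 6.53 (SE 0.25, edgeR adjusted p 2.1e-10). Per kilobase of exon its means of 10.6 CPM in SW480 and 0.135 CPM in HCT116 made it the highest in SW480 of the 8 members with the most CPM there. LINC00649 was at a mean of 21.5 CPM in SW480 and 0.0994 CPM in HCT116.

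**Figure D2:**
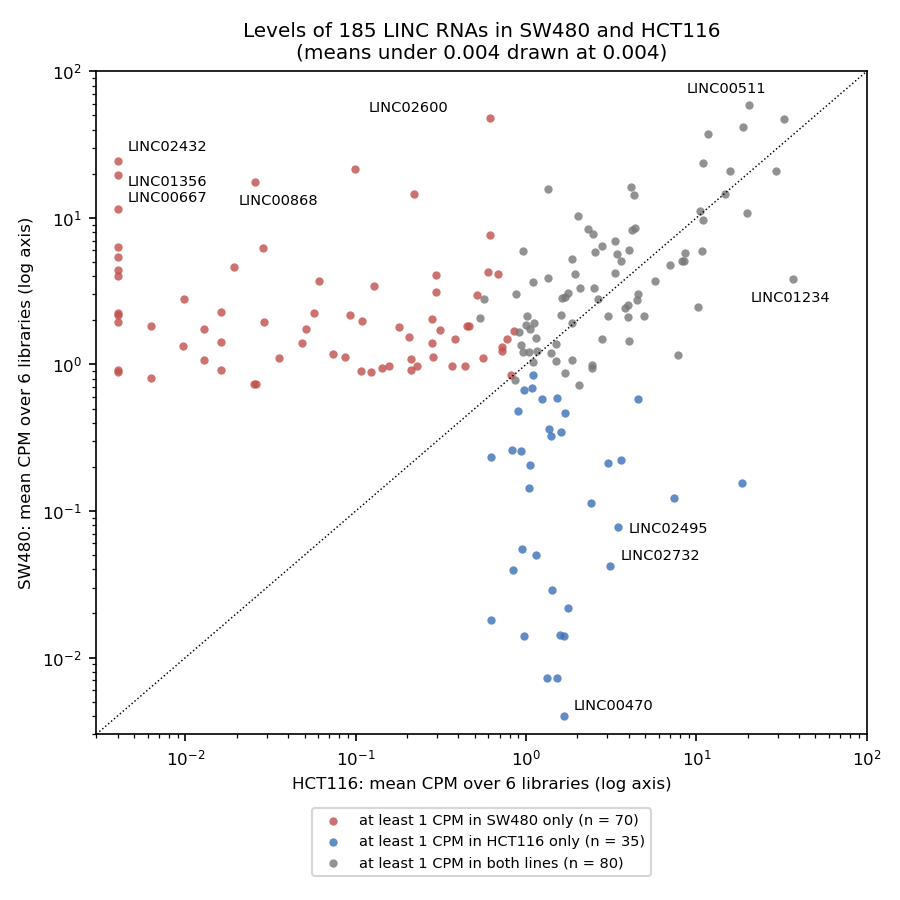
Mean CPM over the 6 SW480 libraries (y axis, log scale) against the mean over the 6 HCT116 libraries (x axis, log scale), 1 point for each of the 185 LINC RNAs, with means under 0.004 drawn at 0.004 and equal levels on the dotted line. The column of points at the left edge holds transcripts such as LINC02432 that were at 24.4 CPM in SW480 and had no count in HCT116.

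Some members were largely restricted to a single line, although not always absent from the other. LINC02495, for example, had 2 to 7 counts in the SW480 libraries. At 1 CPM or more in all 3 groups of a line and under 0.1 CPM in all 3 groups of the other were 20 members for SW480 and 4 for HCT116. The highest of the SW480 set were LINC02432 (mean 24.4 CPM), LINC01356 (19.5 CPM), LINC00868 (17.6 CPM), LINC00667 (11.6 CPM), LINC01357 (6.37 CPM) and LINC00899 (6.21 CPM). The HCT116 set was lower, with LINC02495 (3.48 CPM), LINC01338 (1.67 CPM), LINC00470 (1.66 CPM) and LINC02449 (1.42 CPM). These levels are part of the choice and were not tested.

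LINC02432 had 17.6 to 34.6 CPM in SW480 and no count in any of the 6 HCT116 libraries, and its SW480 mean was at least 208-fold higher than the highest limit that a count of 0 allows in a HCT116 library. The same bound was 98.4-fold for LINC00667, at 8.91 to 16.4 CPM in SW480, and 46.1-fold for LINC01948, at 4.18 to 5.90 CPM. LINC00237, LINC01132 and LINC01152 also had 0 counts in HCT116, with bounds of 34.4-fold, 18.4-fold and 7.52-fold. LINC00470 was the only member with 0 counts in all SW480 libraries, and it had 1.14 to 2.31 CPM in HCT116, which makes SW480 at least 11.9-fold lower.

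Neighbours of the members largely restricted to SW480 did not always share that pattern. LINC00667 lies on the plus strand of chr18:5237825-5290607 (hg19) and overlaps ZBTB14, a zinc finger transcription factor gene, on the opposite strand. ZBTB14 was at 7.39 to 10.2 CPM in the SW480 libraries and 6.23 to 8.89 CPM in the HCT116 libraries, ranges that overlap, while LINC00667 had 8.91 to 16.4 CPM in SW480 and no count in HCT116. LINC00334 likewise overlaps POFUT2 on the opposite strand, whose group means were 26.3 to 30.8 CPM in SW480 and 28.4 to 38.4 CPM in HCT116. LINC00526, which also overlaps LINC00667 on the opposite strand, had group means of 0.661 to 1.07 CPM in SW480 and at most 0.00964 CPM in HCT116. These genes and the next were named after their values were seen. Near LINC00237, KIZ, a centrosomal protein gene 19469 bp away on the opposite strand, was at 88.9 to 148 CPM in SW480 and 3.95 to 9.19 CPM in HCT116. PADI1, an arginine deiminase gene 7511 bp from LINC02783, was at 51.2 to 99.7 CPM in SW480 and 0.0385 to 0.285 CPM in HCT116.

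The promoter window of LINC00667 is shown because the transcript was absent from the counts of one line beside an overlapping gene that was not. RefSeq (GRCh38.p14) gives it as chr18:5237850-5238149, plus strand, from 250 bases before to 50 bases after the start. It holds 72.0% G and C and 38 CG dinucleotides. The medians were 60.0% and 14 over the 141 windows of the 120 members that matched by symbol, and 58.7% and 14 over all 35116 RefSeq windows.
LINC00667: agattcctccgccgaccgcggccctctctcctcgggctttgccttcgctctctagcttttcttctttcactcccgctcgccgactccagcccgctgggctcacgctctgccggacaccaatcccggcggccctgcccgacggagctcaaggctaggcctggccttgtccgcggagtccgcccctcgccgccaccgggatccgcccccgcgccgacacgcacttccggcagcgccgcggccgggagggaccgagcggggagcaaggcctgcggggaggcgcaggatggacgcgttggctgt
Capitals would mark CACCTG, an E-box bound by ZEB1 and SNAI1, TGANTCA, the AP-1 site, or TATAAA, the TATA box, searched on both strands, and this window held none. CACCTG was found in 24.8% of the members' windows and 20.6% of all windows, TGANTCA in 11.3% of the members' and 7.71% of all, and TATAAA in 12.8% of the members' and 11.5% of all.

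Within a line, most members were not called. Of the 185, 169 passed the filter on low counts in SW480 and 146 in HCT116. In at least 1 of the 6 comparisons within a line, 16 were called, 24 calls in all. In SW480 the members' shares were 4.73% (CD44s-OE against parental), 0% (CD44v6-OE against parental) and 2.37% (between isoforms). Over all genes they were 2.03%, 0.416% and 1.02%. The same shares in HCT116 were 5.48%, 1.37% and 1.37%, and over all genes 3.09%, 0.779% and 0.288%. Because the rule admits genes through their highest group, these shares are not evidence about the members. The 56 members that reached 1 CPM in all 6 groups had log2 fold changes from -1.40 to 1.96 in these comparisons, and each of the 16 called members was under 1 CPM in at least 1 group. The comparisons of a line share libraries, so their values are given side by side and are not independent.

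**Figure D3:**
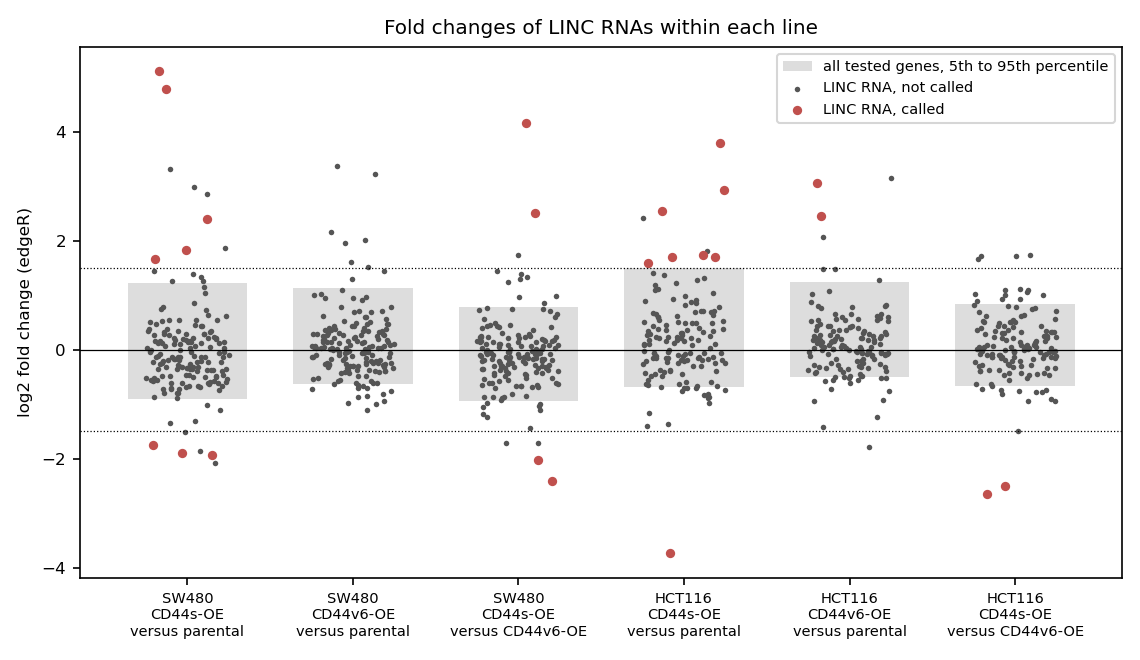
Log2 fold change (y axis) of each tested LINC RNA, 1 point each, in the 6 comparisons within a line (x axis), with called ones in red, the 5th to 95th percentile of all tested genes in grey and dotted lines at 1.5 and -1.5. Most points lie inside the grey band, and SW480 CD44v6-OE versus parental has no called LINC RNA.

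In SW480 CD44s-OE cells, 5 of 169 members rose and 3 fell against parental cells, and 2 rose and 2 fell against CD44v6-OE cells. Over all 17539 genes tested, 1.39% rose and 0.639% fell against parental cells (2.03% together), and 0.291% rose and 0.730% fell against CD44v6-OE cells (1.02% together). The first count was 2 without either CD44s-OE library and 12 without parental replicate 2, and the second was 2 without CD44s-OE replicate 2. LINC02178 and LINC01116, counted as rises in both comparisons, reached 1 CPM in SW480 CD44s-OE alone. The rule therefore admitted them through the group tested here, and it admitted LINC01508 and LINC01819 only through the SW480 OE groups. The median log2 fold change of the members was -0.13 against parental cells and -0.13 against CD44v6-OE cells. That of all genes was 0.00 and 0.01. The summed level of the 11 colon epithelium markers also differed, at 8549 and 9992 CPM with CD44s-OE, 15110 and 13850 CPM with CD44v6-OE and 17380 and 17430 CPM in parental cells, with 6 or 7 markers at 1 CPM or more in each SW480 library. CDH17 was at 0 in parental cells and none was at 0 in the OE groups, and the part of this difference in the members' values was not tested.

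LINC02178 had the largest fold change of the members called in SW480 apart from LINC02700, which rests on few counts. This 425-base transcript of 2 exon blocks (chr16:50424827-50429044, hg19, minus strand) had 7.64 and 17.7 CPM with CD44s-OE, 0.505 and 0.905 CPM with CD44v6-OE and 0.255 and 0.611 CPM in parental SW480 cells. Both CD44s-OE libraries stood above the other 4, although they were far apart from each other. LINC02178 reached 1 CPM in this group alone, so the rule admitted it through the group tested, and its rise is a description. The log2 fold change was 4.78 (SE 0.56, edgeR adjusted p 0.0028) against parental and 4.17 (SE 0.53, edgeR adjusted p 0.0052) against CD44v6-OE cells, and it ranged from 4.01 to 5.47 and from 3.38 to 4.67 with each library left out. In HCT116 it was at 0.0578 CPM or less in every library. The bromodomain gene BRD7, its nearest tested neighbour at 21928 bp, had a log2 fold change of 0.37 (SE 0.17, edgeR adjusted p 0.31) against parental cells.

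LINC01116 was the other member that rose in both comparisons of SW480 CD44s-OE, against parental and against CD44v6-OE cells. It too was a member only through SW480 CD44s-OE, the group tested. It had 2.33 and 3.08 CPM with CD44s-OE, 0.439 and 0.508 CPM with CD44v6-OE and 0.580 and 1.04 CPM in parental cells, without overlap. Its log2 fold change was 1.66 (SE 0.41, edgeR adjusted p 0.061) against parental and 2.50 (SE 0.43, edgeR adjusted p 0.017) against CD44v6-OE cells. The first call was lost without either CD44s-OE library, either CD44v6-OE library or parental replicate 1 (adjusted p up to 0.494) and in a fit of the 2 groups alone (0.104), and the second without CD44s-OE replicate 2 or either CD44v6-OE library (up to 0.282). LINC01117, which overlaps it on the opposite strand, had a log2 fold change of 1.63 (SE 0.67, edgeR adjusted p 0.26) against parental cells.

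LINC01356 fell in the same comparisons. At chr1:113362792-113393265 (hg19, minus strand), it had 7.61 and 6.66 CPM with CD44s-OE, 27.6 and 30.3 CPM with CD44v6-OE and 20.3 and 24.7 CPM in parental SW480 cells. The libraries of each pair lay close together and the groups did not overlap. The log2 fold change was -1.75 (SE 0.19, edgeR adjusted p 0.0010) against parental and -2.03 (SE 0.19, edgeR adjusted p 0.00056) against CD44v6-OE cells, and both calls held with each library left out, at adjusted p up to 0.042 and 0.033. LINC01357, which overlaps it on the opposite strand, had 6.10 and 6.52 CPM with CD44s-OE, 5.60 and 6.45 CPM with CD44v6-OE and 7.49 and 6.07 CPM in parental cells. These groups overlapped, with a log2 fold change of -0.20 (SE 0.25, edgeR adjusted p 0.77) against parental cells, and reads were assigned by strand.

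The promoter windows of these 3 transcripts are shown as start regions of members that differed between CD44s-OE and both other SW480 groups. They are RefSeq windows on GRCh38.p14 of 250 bases before to 50 bases after the start: chr16:50395084-50395383 for LINC02178, chr2:176637560-176637859 for LINC01116 and chr1:112850594-112850893 for LINC01356, all on the minus strand.
LINC02178: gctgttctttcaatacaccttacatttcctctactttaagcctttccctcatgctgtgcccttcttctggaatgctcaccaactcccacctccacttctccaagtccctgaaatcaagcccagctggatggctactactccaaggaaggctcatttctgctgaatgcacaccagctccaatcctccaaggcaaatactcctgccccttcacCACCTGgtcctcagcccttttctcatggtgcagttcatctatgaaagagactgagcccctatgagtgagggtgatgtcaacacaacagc
LINC01116: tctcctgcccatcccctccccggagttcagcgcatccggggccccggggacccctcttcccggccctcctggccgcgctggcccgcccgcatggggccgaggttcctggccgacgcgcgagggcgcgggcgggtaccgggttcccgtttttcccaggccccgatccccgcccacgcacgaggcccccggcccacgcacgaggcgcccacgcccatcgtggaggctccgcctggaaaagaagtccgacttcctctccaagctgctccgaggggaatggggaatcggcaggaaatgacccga
LINC01356: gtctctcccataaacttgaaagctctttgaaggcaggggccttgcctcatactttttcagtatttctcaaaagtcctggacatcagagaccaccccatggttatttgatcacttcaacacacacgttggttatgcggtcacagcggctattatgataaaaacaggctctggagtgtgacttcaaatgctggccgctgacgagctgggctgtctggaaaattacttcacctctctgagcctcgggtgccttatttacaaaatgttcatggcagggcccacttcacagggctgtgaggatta
Capitals mark matches to the 3 motifs above. The CACCTG of LINC02178, which begins at position -39 from the start, is the only match in the 3 windows, and the window has no CG dinucleotide at 50.0% G and C. LINC01116 has 34 CG dinucleotides at 72.7% G and C, and LINC01356 has 6 at 47.7%.

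LINC00514 (GREP1 in GENCODE v44) fell with CD44s-OE against CD44v6-OE cells in both lines. It had 0.483 and 0.784 CPM with CD44s-OE, 3.67 and 3.14 CPM with CD44v6-OE and 2.23 and 2.22 CPM in parental SW480 cells. In HCT116 it had 0.116 and 0.215 CPM with CD44s-OE, 1.12 and 1.02 CPM with CD44v6-OE and 0.398 and 0.342 CPM in parental cells. In both lines CD44s-OE was lowest and CD44v6-OE highest, with no overlap between groups, but the HCT116 CD44s-OE values rest on 6 and 11 counts. LINC00514 reached 1 CPM only in the CD44v6-OE groups and in parental SW480 cells. The rule therefore admitted it through groups that CD44s-OE was tested against, and its fall is a description.

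Against CD44v6-OE its log2 fold change was -2.41 (SE 0.38, edgeR adjusted p 0.0092) in SW480 and -2.64 (SE 0.52, edgeR adjusted p 0.080) in HCT116, and against parental SW480 cells -1.89 (SE 0.38, edgeR adjusted p 0.023). The SW480 calls were lost without either CD44s-OE library (adjusted p up to 0.138 and 0.173), and the HCT116 call without any of the CD44v6-OE or parental libraries (up to 0.741) and in a fit of the 2 groups alone (0.151). PKMYT1, the nearest tested gene at 7777 bp and a cell cycle kinase gene, had a log2 fold change of -0.07 (SE 0.16, edgeR adjusted p 0.88) in SW480 CD44s-OE against parental cells.

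Other genes near LINC00514 fell with it (named after their values were seen). CLDN9, a claudin of tight junctions 10907 bp away, had 1.25 and 0.627 CPM with CD44s-OE, 4.81 and 5.37 CPM with CD44v6-OE and 5.89 and 3.87 CPM in parental SW480 cells. BICDL2, a cargo adaptor gene 25666 bp away, had 0.943 and 0.372 CPM with CD44s-OE, 5.53 and 5.28 CPM with CD44v6-OE and 2.60 and 2.67 CPM in parental SW480 cells. Against parental cells the log2 fold changes were -2.50 (SE 0.39, edgeR adjusted p 0.0067) for CLDN9 and -2.11 (SE 0.40, edgeR adjusted p 0.019) for BICDL2, and BICDL2 was also called in HCT116 CD44s-OE against CD44v6-OE, at -1.52 (SE 0.21, edgeR adjusted p 0.023). The other 13 tested genes within 100 kb were not called in SW480 CD44s-OE against parental cells.

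LINC00239, LINC01508, LINC01819 and LINC02700 were called in SW480 CD44s-OE against parental cells alone. LINC00239 had 1.87 and 1.86 CPM with CD44s-OE, 4.61 and 4.13 CPM with CD44v6-OE and 8.35 and 4.95 CPM in parental cells, with a log2 fold change of -1.94 (SE 0.33, edgeR adjusted p 0.011). The 3 groups did not overlap, with CD44v6-OE in between, and the call was lost without either CD44s-OE library or parental replicate 1 (adjusted p up to 0.187). LINC02320, which overlaps it on the opposite strand, had a log2 fold change of -1.86 (SE 0.63, edgeR adjusted p 0.17).

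LINC01508 had 3.53 and 2.96 CPM with CD44s-OE, 0.812 and 1.55 CPM with CD44v6-OE and 0.742 and 0.958 CPM in parental cells, for a log2 fold change of 1.84 (SE 0.40, edgeR adjusted p 0.036) against parental cells. LINC01819 had 1.47 and 1.69 CPM with CD44s-OE, 2.06 and 0.618 CPM with CD44v6-OE and 0.232 and 0.326 CPM in parental cells, for a log2 fold change of 2.40 (SE 0.59, edgeR adjusted p 0.057). CD44s-OE and parental cells did not overlap for either, while for LINC01819 the CD44v6-OE libraries lay on both sides of CD44s-OE. Both RNAs reached 1 CPM only in the SW480 OE groups, so the rule admitted them through groups that include the one tested. Their rise is a description. Both calls were lost without either CD44s-OE library, at adjusted p up to 0.247 and 0.387, and neither RNA passed 0.0577 CPM in a HCT116 library.

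LINC02700 had 0.505 and 0.470 CPM in SW480 cells with CD44s-OE, 0.220 and 0.0662 CPM with CD44v6-OE and 0 and 0.0204 CPM in parental cells. With 47 counts against 1 count, the ratio of CD44s-OE to parental cells was 44.8 (nominal 95% Clopper-Pearson interval 7.67 to 1808, counting error only). The reads of a pair appear to be counted singly, so this interval is too narrow. The fitted log2 fold change of 5.11 (SE 1.14, edgeR adjusted p 0.038) depends on the prior count. This call was lost without either CD44s-OE library (adjusted p up to 0.298). In HCT116 the same RNA had 2.02 and 2.84 CPM with CD44s-OE, 3.19 and 3.51 CPM with CD44v6-OE and 3.69 and 2.85 CPM in parental cells, so that SW480 CD44s-OE stayed under every HCT116 library.

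The nearest tested gene to LINC02700, PIWIL4 at 16624 bp, had a log2 fold change of -0.37 (SE 0.24, edgeR adjusted p 0.52) in SW480 CD44s-OE against parental cells. AMOTL1, an angiomotin family gene 53547 bp away on the same strand (named after its values were seen), had 4.63 and 2.92 CPM with CD44s-OE, 1.21 and 0.375 CPM with CD44v6-OE and 0.325 and 0.122 CPM in parental SW480 cells, for a log2 fold change of 3.97 (SE 0.64, edgeR adjusted p 0.010). Like LINC02700, its level was higher in HCT116, with group means of 43.6 to 43.8 CPM.

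**Figure D4:**
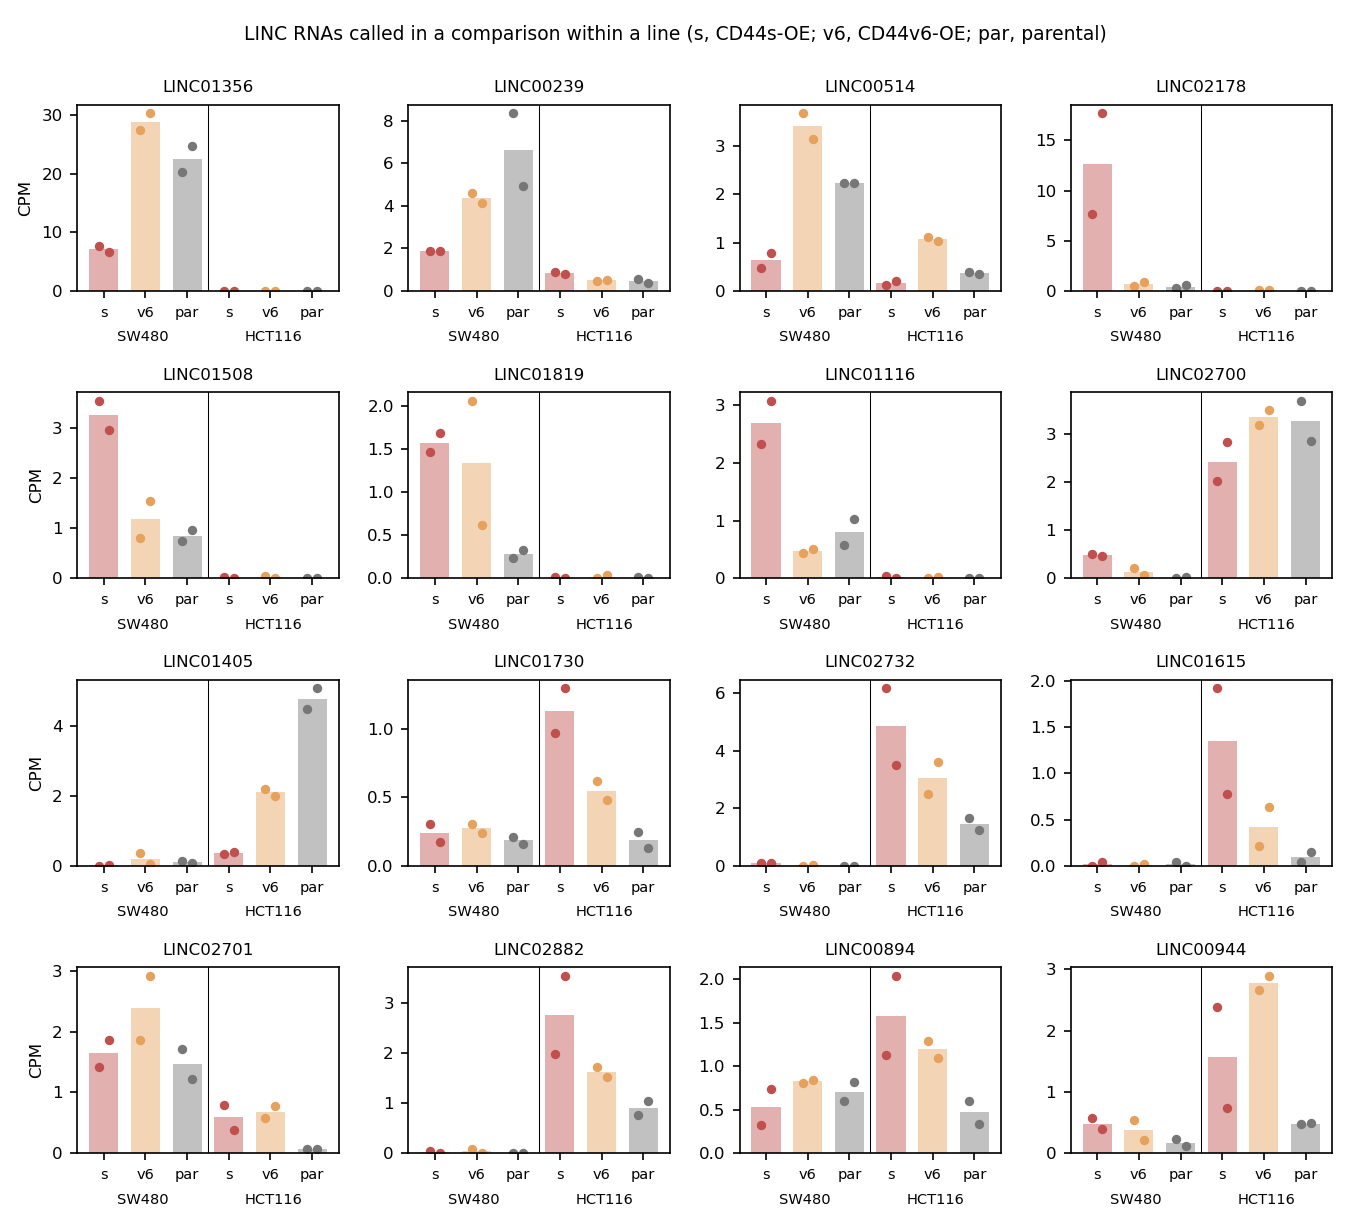
CPM (y axes, from 0, scaled for each panel) of the 16 LINC RNAs called within a line, with bars at the mean and points for the 2 libraries of each group. LINC02178 stands at 7.64 and 17.7 CPM in SW480 CD44s-OE and under 1 CPM elsewhere, and LINC01405 falls to 0.330 and 0.392 CPM in HCT116 CD44s-OE, against 4.49 and 5.09 CPM in parental cells.

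In SW480 CD44v6-OE cells, 0 of 169 members were called by edgeR against parental cells, where 0.416% of all 17539 genes were (0.405% higher and 0.0114% lower). Without either parental library, 2 members were called. At an unadjusted p under 0.05 there were 17 members, and DESeq2 called 2. LINC00963 had the lowest adjusted p of the members, at a log2 fold change of 0.70 (SE 0.16, edgeR adjusted p 0.12), followed by LINC01819 at 2.16 (SE 0.59, edgeR adjusted p 0.23). These values do not show that the 2 groups are alike.

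In HCT116 CD44s-OE cells, 7 of 146 members rose and 1 fell against parental cells, where 2.71% of all 17335 genes rose and 0.387% fell (3.09% together). LINC01615 and LINC01730, counted among the rises, reached 1 CPM in HCT116 CD44s-OE alone, so the rule admitted them through the group tested. It admitted LINC02882, LINC00894 and LINC00944, also among the rises, only through the HCT116 OE groups. The median log2 fold change was 0.14 for the members and 0.04 for all genes. This count rested on single libraries: it was 18 without CD44s-OE replicate 1 and 1 without parental replicate 2. The 7 fibroblast markers summed to 32.2 and 58.3 CPM with CD44s-OE, 35.4 and 32.8 CPM with CD44v6-OE and 19.2 and 13.4 CPM in parental HCT116 cells. Only COL1A1 and COL3A1 were at 1 CPM or more in CD44s-OE, DCN and LUM were at 0 there, and COL3A1 was at 7.39 and 20.6 CPM in CD44s-OE and 0.114 CPM in both parental libraries. The part of this in the members' values was not tested.

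LINC01405 was the member that fell, and the call that held without each library. At chr12:111372394-111396897 (hg19, plus strand), it had 0.330 and 0.392 CPM with CD44s-OE, 2.21 and 2.00 CPM with CD44v6-OE and 4.49 and 5.09 CPM in parental HCT116 cells. The groups did not overlap and CD44v6-OE lay in between. LINC01405 reached 1 CPM only in HCT116 parental and CD44v6-OE cells, so the rule admitted it through the groups it was tested against. Its fall is a description. The log2 fold change was -3.74 (SE 0.32, edgeR adjusted p 0.0011) against parental cells, and adjusted p stayed at 0.0215 or less with each library left out. Against CD44v6-OE it was -2.51 (SE 0.32, edgeR adjusted p 0.018), a call lost without either CD44v6-OE library (adjusted p up to 0.229). In SW480 it did not pass 0.373 CPM.

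MYL2, the regulatory light chain of cardiac and slow muscle myosin, lies 13147 bp from LINC01405 on the opposite strand and is its nearest tested gene. It had 0 and 0.0783 CPM with CD44s-OE, 0.462 and 0.386 CPM with CD44v6-OE and 1.17 and 0.760 CPM in parental HCT116 cells, the same order as LINC01405. Its log2 fold change against parental cells was -4.57 (SE 0.84, edgeR adjusted p 0.015), a fitted value that depends on the prior count since CD44s-OE lay under the limit that a count of 0 allows. Of the 18 calls of members with a tested neighbour within 100 kb, this was the only one whose nearest neighbour was called too.

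**Figure D5:**
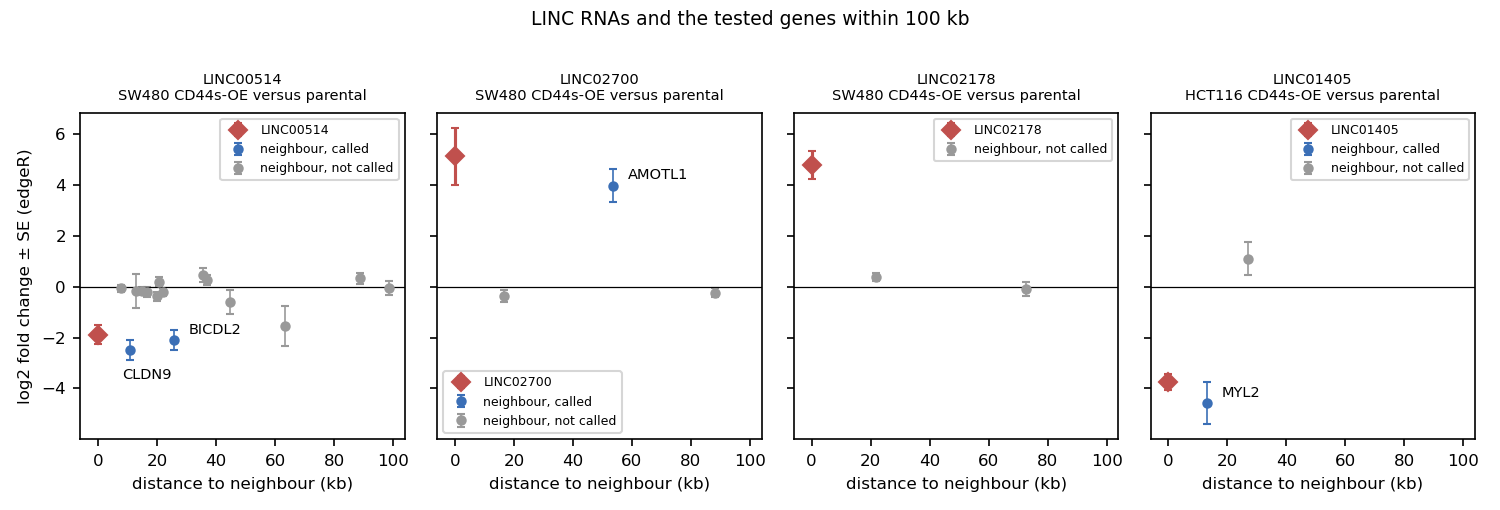
Log2 fold change with its SE (y axis) against distance in kb (x axis) for 4 called LINC RNAs, drawn as diamonds at 0, and the tested genes within 100 kb, with called neighbours in blue and named. MYL2 fell with LINC01405 in HCT116 CD44s-OE against parental cells, CLDN9 and BICDL2 fell with LINC00514 and AMOTL1 rose with LINC02700 in SW480, and LINC02178 had no called neighbour.

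Among the 7 members that rose, LINC02732 and LINC02882 were the highest. LINC02732 had 6.17 and 3.52 CPM with CD44s-OE, 2.48 and 3.62 CPM with CD44v6-OE and 1.67 and 1.24 CPM in parental HCT116 cells, for a log2 fold change of 1.74 (SE 0.36, edgeR adjusted p 0.025). LINC02882 had 1.98 and 3.54 CPM with CD44s-OE, 1.73 and 1.52 CPM with CD44v6-OE and 0.757 and 1.05 CPM in parental cells, for a log2 fold change of 1.58 (SE 0.37, edgeR adjusted p 0.033). Both CD44s-OE libraries exceeded both parental ones, and neither RNA passed 0.110 CPM in SW480. LINC02882 reached 1 CPM only in the HCT116 OE groups, so the rule admitted it through groups that include the one tested. The first call was lost without CD44s-OE replicate 1 or parental replicate 2 (adjusted p up to 0.214) and the second without CD44s-OE replicate 2 or either parental library (up to 0.163).

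LINC01615 and LINC01730 were low in parental cells. LINC01615 had 1.92 and 0.783 CPM with CD44s-OE, 0.212 and 0.636 CPM with CD44v6-OE and 0.0379 and 0.152 CPM in parental HCT116 cells, the last from 2 and 8 counts. LINC01730 had 0.970 and 1.29 CPM with CD44s-OE, 0.616 and 0.482 CPM with CD44v6-OE and 0.246 and 0.133 CPM in parental cells. CD44s-OE was highest for both. Both reached 1 CPM in that group alone, so the rule admitted them there and their rise is a description. The log2 fold changes against parental cells were 3.80 (SE 0.81, edgeR adjusted p 0.026) and 2.54 (SE 0.50, edgeR adjusted p 0.020), lost without either parental library for LINC01615 (up to 0.134) and without parental replicate 2 for LINC01730 (0.170).

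LINC02701 and LINC00944 rose with both isoforms in HCT116, where 2 of 146 members were called in CD44v6-OE against parental cells (0.738% of all genes rose there, 0.0404% fell and 0.779% were called in either direction). LINC02701 had 0.795 and 0.392 CPM with CD44s-OE, 0.577 and 0.771 CPM with CD44v6-OE and 0.0757 and 0.0760 CPM in parental cells, where each library held 4 counts, under the limit that a count of 0 allows. LINC00944 had 2.39 and 0.744 CPM with CD44s-OE, 2.66 and 2.89 CPM with CD44v6-OE and 0.473 and 0.494 CPM in parental cells. For both RNAs all 4 OE libraries were above both parental ones. LINC00944 reached 1 CPM only in the HCT116 OE groups, so the rule admitted it through the groups tested and its rise is a description.

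For LINC02701 the log2 fold changes were 2.93 (SE 0.66, edgeR adjusted p 0.030) in CD44s-OE and 3.06 (SE 0.66, edgeR adjusted p 0.081) in CD44v6-OE, and for LINC00944 they were 1.69 (SE 0.53, edgeR adjusted p 0.084) and 2.46 (SE 0.53, edgeR adjusted p 0.082). The CD44v6-OE calls of both were lost without any of the CD44v6-OE or parental libraries (adjusted p up to 0.474 and 0.535). The CD44s-OE call of LINC02701 was lost without either parental library (up to 0.201), and that of LINC00944 without any library but CD44s-OE replicate 2 (up to 0.399) and in a fit of the 2 groups alone (0.163), with a log2 fold change of 0.55 without CD44s-OE replicate 1. In SW480, LINC02701 was at 1.22 to 2.91 CPM in all 6 libraries.

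LINC00894 completed the members that rose. It overlaps EOLA2 on the opposite strand and had 1.13 and 2.04 CPM with CD44s-OE, 1.29 and 1.10 CPM with CD44v6-OE and 0.606 and 0.342 CPM in parental HCT116 cells, for a log2 fold change of 1.71 (SE 0.44, edgeR adjusted p 0.047). The call was lost without CD44s-OE replicate 2, either CD44v6-OE library or parental replicate 2 (adjusted p up to 0.286), and in a fit of the 2 groups alone (0.106). LINC00894 reached 1 CPM only in the HCT116 OE groups, so the rule admitted it through groups that include the one tested. EOLA2 had a log2 fold change of -0.09 (SE 0.15, edgeR adjusted p 0.76).

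Between the isoforms in HCT116, 2 of 146 members fell in CD44s-OE against CD44v6-OE cells, LINC01405 and LINC00514, as given above. Of all genes tested, 0.162% were lower and 0.127% higher (0.288% together). This count was 9 without CD44s-OE replicate 1 and 0 without either CD44v6-OE library.

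The response to CD44s-OE against parental cells differed between the lines for 8 of 185 members (SW480 minus HCT116, edgeR, adjusted p under 0.1), 4 higher and 4 lower in SW480, where 3.92% of all genes differed (1.65% higher and 2.27% lower). Among the 4 lower is LINC00923, whose SW480 counts all lay under the limit that a count of 0 allows, so that no SW480 fold can be given for it. The count was 15 by DESeq2, 16 without a filter on low counts, 3 with the replicate number as a block and 2 to 12 with each library left out. LINC02700 and LINC00239 kept their call without each library in turn. For LINC02700 the log2 fold change was higher in SW480 by 5.59 (SE 0.94, edgeR adjusted p 0.0089), with the SW480 parental level resting on 1 count. For LINC00239, at 0.873 and 0.783 CPM in CD44s-OE and 0.549 and 0.361 CPM in parental HCT116 cells, the difference was -2.77 (SE 0.52, edgeR adjusted p 0.015), and the RNA fell in SW480 but had a log2 fold change of 0.85 (SE 0.45, edgeR adjusted p 0.27) in HCT116.

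The response to CD44v6-OE against parental cells differed for 0 of 185 members, where 0.409% of all genes did (0.210% higher and 0.199% lower). At an unadjusted p under 0.05 there were 17 members, and DESeq2 called 1. Between CD44s-OE and CD44v6-OE, 1 of 185 was lower in SW480, where 0.491% of all genes differed (0.0869% higher and 0.404% lower). With the replicate number as a block, this call was lost (edgeR adjusted p 0.123) and 1 other member was called higher. The member called lower was LINC02600, at 33.0 and 29.9 CPM with CD44s-OE, 52.0 and 66.0 CPM with CD44v6-OE and 50.8 and 56.6 CPM in parental SW480 cells, and at 0.463 to 0.892 CPM in HCT116. Its difference between the lines was -1.54 (SE 0.33, edgeR adjusted p 0.094), a call lost without any of 9 of the 12 libraries (adjusted p up to 0.499).

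Long noncoding RNAs with names of their own were set beside the members. Of a list of 45, 38 were tested in SW480 and 36 in HCT116. In SW480, 1 was called: TINCR, known from epidermal differentiation, had 3.27 and 3.61 CPM in CD44s-OE, against 0.835 and 1.39 CPM in parental cells, for a log2 fold change of 1.55 (SE 0.41, edgeR adjusted p 0.080). In HCT116 CD44s-OE against parental cells 3 of 36 rose, where 2.71% of all genes did. On the log2 scale, MIR22HG, the host of miR-22, rose by 2.35 (SE 0.29, edgeR adjusted p 0.0037). The nuclear RNA MALAT1 rose by 1.95 (SE 0.44, edgeR adjusted p 0.046) and MIR31HG, the host of miR-31, by 1.52 (SE 0.33, edgeR adjusted p 0.027). MALAT1 had 34.8 and 76.2 CPM with CD44s-OE and 19.6 and 8.68 CPM in parental cells, so the libraries of each group lay far apart.

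MIR22HG had 5.18 and 7.62 CPM with CD44s-OE, 3.39 and 4.30 CPM with CD44v6-OE and 1.10 and 1.37 CPM in parental HCT116 cells. It was also called in CD44v6-OE against parental cells (log2 fold change 1.58, SE 0.29, edgeR adjusted p 0.045), as was LUCAT1 (1.81, SE 0.34, adjusted p 0.048). These were 2 of 36, where 0.738% of all genes rose. UCA1, an RNA first described in urothelial cancer, was the only 1 of 36 called between the isoforms in HCT116, where 0.288% of all genes were. It had 60.5 and 62.2 CPM with CD44s-OE, 207 and 208 CPM with CD44v6-OE and 144 and 169 CPM in parental cells, with a log2 fold change of -1.72 (SE 0.14, edgeR adjusted p 0.0043) against CD44v6-OE.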

How the data were processed

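RNA of 12 libraries, 2 per group and line, was sequenced as read pairs on DNBSEQ. According to their methods and notes, the authors filtered reads with SOAPnuke, aligned them to hg19 with STAR 2.7.9a, marked duplicates with Sambamba and counted them over GENCODE genes by strand with featureCounts of Subread 2.0.3. The counts deposited by the authors are raw, and the reads of a pair appear to be counted singly. The deposited variance-stabilized table (log2 scale, DESeq2 1.30.1, by the authors) was used for symbols only.

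CPM was computed from the deposited counts. In edgeR 4.0.16 (with limma 3.58.1 on R 4.3.3) the 6 libraries of a line went into a fit of their own: TMM, filterByExpr, robust quasi-likelihood dispersions and F-test, Benjamini-Hochberg adjustment over all tested genes, with calls at an adjusted p below 0.1 together with a log2 fold change beyond 1.5 in size. A fit of all 12 libraries compared the lines, with differences between lines called at an adjusted p under 0.1. SE is the log2 fold change over the root of F. The fits were tested on simulated data with changes placed only in genes above a set mean level, so the lowest RNAs here were not covered. DESeq2 1.42.0 was an alternative.

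The members and gene lists were chosen with earlier results of these data known. Named were the 8 highest members of each line, members called within a line and the 6 highest of those largely restricted to 1 line. Also named were the 6 lowest adjusted p per difference between lines, and the nearest tested gene within 100 kb of a called member. Positions came from the gene models given with the deposited counts (GRCh37). Gene types and later names came from GENCODE v44 on GRCh37, and promoters from RefSeq. Samples were grouped as labelled.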

Additional observations from a re-analysis of the deposited data

Results flagged for a closer look

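For 8 of 185 members (4.32%), the response to CD44s-OE against parental cells differed between the lines (edgeR interaction test, adjusted p under 0.1). Over all genes tested this share was 3.92%. Between CD44s-OE and CD44v6-OE, 1 of 185 (0.541%) differed, against 0.491% of all genes. Both shares of the members are near those of all genes. Each difference is the log2 fold change in SW480 minus that in HCT116.

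LINC02700 differed by 5.59 (SE 0.94, edgeR adjusted p 0.0089), with log2 fold changes of 5.11 in SW480 and -0.45 in HCT116. LINC00239 differed by -2.77 (SE 0.52, edgeR adjusted p 0.015), with -1.94 in SW480 and 0.85 in HCT116. LINC02701 differed by -2.84 (SE 0.75, edgeR adjusted p 0.072), with 0.07 in SW480 and 2.93 in HCT116. LINC01123 differed by 1.22 (SE 0.31, edgeR adjusted p 0.065), with -0.21 in SW480 and -1.40 in HCT116, where it had 2.46 and 2.17 CPM in CD44s-OE and 6.23 and 5.91 CPM in parental cells. This RNA fell in HCT116 at an adjusted p of 0.011, under the fold threshold.

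LINC00923 differed by -5.76 (SE 1.55, edgeR adjusted p 0.083), but in SW480 it had no count in CD44s-OE and 0.0464 and 0.102 CPM in parental cells, both under the limit that a count of 0 allows, so no fold is given there. Its log2 fold change was 0.78 in HCT116. LINC02600 differed by -1.18 (SE 0.33, edgeR adjusted p 0.089), with -0.86 in SW480 and 0.34 in HCT116, and by -1.54 (SE 0.33, edgeR adjusted p 0.094) between CD44s-OE and CD44v6-OE, with -0.92 and 0.62. LINC01515 differed by 2.14 (SE 0.61, edgeR adjusted p 0.095), with 1.87 in SW480 and -0.24 in HCT116. LINC01278 differed by 0.82 (SE 0.24, edgeR adjusted p 0.096), with 0.39 in SW480 and -0.41 in HCT116, and it overlaps SPIN4 on the same strand, so reads may be split between them. All but LINC02700 and LINC00239 lost the call without at least 1 library.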

How the results depend on the processing

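The fold change or difference of each of 33 named calls kept its sign under each alternative. The direction of the counts did not always hold: without parental replicate 2, HCT116 CD44s-OE against parental cells had 0 members higher and 1 lower, in place of 7 and 1. With 2 libraries per group, 185 members by the rule became 271 at 0.5 CPM, 124 at 2 CPM, 184 after TMM and 167 with both libraries at 1 CPM, and 183 to 191 with each library left out. The count of 107 members called between parental SW480 and HCT116 cells moved by less than 1.5 times throughout, with 105 to 108 when each library was left out.

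Without a filter on low counts, 4 members were called in HCT116 and 2 in SW480 for CD44v6-OE against parental cells, and 16, 3 and 5 for the differences between lines in CD44s-OE against parental, CD44v6-OE against parental and CD44s-OE against CD44v6-OE cells. DESeq2 gave 2 for SW480 CD44v6-OE against parental cells, and 15, 1 and 5 for those 3 differences between lines. At an adjusted p under 0.05, 0 members were called in HCT116 CD44v6-OE against parental cells, 1 in HCT116 CD44s-OE against CD44v6-OE cells, and 2 and 0 for the differences between lines in CD44s-OE against parental and against CD44v6-OE cells. HCT116 CD44s-OE against CD44v6-OE gave 1 in a fit of the 2 groups alone. The difference between lines in CD44s-OE against CD44v6-OE gave 2 with RLE size factors, 0 with robust=FALSE and 0 with counts halved. The cause of these shifts was not tested.

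With each library left out, the counts were 2 to 12 in SW480 CD44s-OE against parental cells, 0 to 2 in SW480 CD44v6-OE against parental cells and 2 to 6 between the isoforms in SW480. The same ranges in HCT116 were 1 to 18, 0 to 3 and 0 to 9, and for the differences between lines 2 to 12, 0 to 1 and 0 to 4. Where an arm kept 1 library, that library is assumed to vary like the other groups.

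No pairing of the replicate numbers across groups is given in the labels. The differences between the libraries of a group correlated at -0.085 to 0.121 across genes between the groups of a line. Whether libraries of the same number share a batch cannot be told from these values. With the replicate block, 3 members in place of 8 differed between the lines in CD44s-OE against parental cells, and 9 were called in HCT116 and 8 in SW480 for CD44s-OE against parental cells. For the difference between lines in CD44s-OE against CD44v6-OE cells the block left a count of 1, but with 1 member higher in SW480 and 0 lower, since LINC02600 was no longer called (difference -1.53, edgeR adjusted p 0.123).

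Of 33 named calls, DESeq2 and RLE size factors lost 0, the fit without a filter 1, robust=FALSE 1, halved counts 3, the replicate block 6 and an adjusted p under 0.05 13, and fits of the 2 groups alone lost 4 of 24. Depth limits LINC02700 in SW480 and LINC02701 and LINC01615 in HCT116, whose parental levels there rest on 8 counts or fewer per library.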
